A study of Mus musculus with 18 samples.

Results

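The miRNAs described here are the products of the miR-10 and miR-196 hairpins, which lie inside the mammalian Hox clusters. The 6 members were taken by name from the 1907 mature miRNAs of the deposited table: mmu-miR-10a-5p, mmu-miR-10a-3p, mmu-miR-10b-5p, mmu-miR-10b-3p, mmu-miR-196a-5p and mmu-miR-196b-5p. The rows of each mature miRNA were summed in every library. The rule is a list of names and applies no measured value, but the names were chosen with earlier results of these data known. Small RNAs (under 200 nt) came from NIH/3T3 cells, an immortalized line of mouse embryonic fibroblasts, and were sequenced before (input) and after immunoprecipitation with an antibody against pseudouridine (Ψ-IP, here IP). Ψ is the rotated isomer of uridine, made in RNA by Ψ synthases such as the product of Pus1. The cells were WT or had Pus1 knocked down, with RNA taken at day 3 (KD3) and day 6 (KD6). Each condition has replicates A, B and C of input and of IP, which makes 18 libraries. All groups are the same cell line, there is no mock-treated group beside WT, and how the knockdown was made is not given in the sources used here. No source states that the letters mark separate cultures, so p-values measure the spread between these libraries, which may be technical.

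A hairpin is cut into a duplex, and the strand that Argonaute mostly keeps (the guide) pairs with target mRNAs through its seed, bases 2 to 8 from the 5′ end. The other arm, the passenger strand, is mostly discarded. miR-10 and miR-196 are transcribed with the Hox genes around them and follow their domains along the body axis, and both target Hox mRNAs. miR-196 directs cleavage of Hoxb8 mRNA, a rare mode of animal miRNA action, and miR-10 is known for regulating Hox genes and for its roles in cell migration.

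The mature sequences carry the first result, because each pair of guides differs at a single base. They are the RefSeq sequences of GRCm38.p6 (the assembly that mm10 also names), written 5′ to 3′ with the seed in capitals.
mmu-miR-10a-5p: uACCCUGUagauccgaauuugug
mmu-miR-10b-5p: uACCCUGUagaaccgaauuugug
mmu-miR-196a-5p: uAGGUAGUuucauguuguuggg
mmu-miR-196b-5p: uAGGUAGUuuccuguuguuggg
mmu-miR-10a-3p: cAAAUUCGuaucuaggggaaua
mmu-miR-10b-3p: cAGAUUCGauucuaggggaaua
With positions counted from 1 at the 5′ end, miR-10a-5p and miR-10b-5p differ by U12A (the base of the first, the position, the base of the second) and miR-196a-5p and miR-196b-5p by A12C. Both differences fall outside the seed, and among the 1623 of 1907 mature miRNAs with a RefSeq sequence no other miRNA had the seed ACCCUGU or the seed AGGUAGU. The passenger strands of miR-10 differ by A3G, U9A and A10U, so their seeds differ. miR-10a-5p holds 8 uridines, miR-10b-5p 7, each miR-10 passenger strand 6 and each miR-196 guide 10. The letters UNUAA or UNUAG, known from targets of the Ψ synthase PUS7 and read here on the RNA strand only, occur in both miR-10 guides (UGUAG from position 6) and in both passenger strands (UCUAG from position 11), and in neither miR-196 guide. Of all 1623 sequences, 10.5% hold them.

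The loci sit in 4 Hox clusters. Mir10a (hairpin chr11:96317165-96317274, plus strand) overlaps no other annotated gene and lies 993 bp from Hoxb4. Mir10b (chr2:74726070-74726137, plus strand) lies in an intron of Hoxd3 and of Hoxd4. miR-196a-5p has an identical mature sequence at both of its loci. Mir196a-1 (chr11:96265164-96265265, plus strand) overlaps no other gene, 6192 bp from Hoxb9, and Mir196a-2 (chr15:102973350-102973434, plus strand) lies in an intron of Hoxc5 transcripts, between Hoxc10 and Hoxc9. Mir196b (chr6:52230081-52230165, minus strand) overlaps an exon of 2 Hoxa9 transcripts. The 2 rows of miR-196a-5p held 165.2 and 189.2 estimated counts over the 18 libraries. The rows were summed, and what sets their split was not tested.

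Replicate A of the KD6 input had 241109 mapped reads, and the other libraries 3989031 to 15099781. On average over 3 libraries, the share of mapped reads not assigned to a miRNA went from 5.60% (input) to 16.8% (IP) in WT, from 9.66% to 32.4% in KD3 and from 8.82% to 27.6% in KD6. In the inputs the fibroblast-associated miR-21a-5p was the most abundant of the 5 checked, at 36.7% ± 1.46 (SD, n = 3) of WT miRNA counts. Of 5 miRNAs that mark other cell types, miR-142a-3p (blood cells) had no count in any input, miR-302a-3p (embryonic stem cells) at most 1 and miR-124-3p (neurons) at most 8.1. The 5 summed to 0.00284 to 0.00398% of miRNA counts in WT input, 0.00244 to 0.00322% in KD3 input and 0.00611 to 0.00846% in KD6 input, nearly all of it miR-122-5p of hepatocytes, and to 0.00994 to 0.0112%, 0.00907 to 0.00986% and 0.0124 to 0.0228% in the IP libraries. Their part in the results below was not tested. Pus1 mRNA is not in the miRNA table, so the knockdown was not checked here.

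miR-10b-5p carried nearly all of the members' reads. Over the 18 libraries it had 8256458 estimated counts, the third highest total of all miRNAs and 92.7% of the counts of the 6 members. miR-10a-5p followed with 642129.5 counts (7.21%, rank 24). The other 4 were scarce: miR-10b-3p had 2942.8 counts, miR-196b-5p 2193.9, miR-10a-3p 434.5 and miR-196a-5p 354.4. All 6 passed the filter on low counts that kept 550 miRNAs.

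In WT input, as CPM (counts relative to the library size times its median-ratio factor), miR-10b-5p stood at 36503, 36029 and 36142 in replicates A, B and C, rank 5 of 550. miR-10a-5p stood at 2304, 2355 and 2322 CPM, rank 40. The 3 libraries lay close together for both guides, and the levels of the 2 guides did not overlap. miR-10b-3p followed at 20.3 ± 1.85 CPM (SD, n = 3) and miR-196b-5p at 14.0 ± 2.99, with ranges that did not meet (18.4 to 22.1 and 11.6 to 17.4). miR-10a-3p (2.83 ± 0.72 CPM) and miR-196a-5p (2.13 ± 0.72) came last, and their ranges overlapped. For scale, the hepatocyte marker miR-122-5p stood at 26.4 ± 5.28 CPM in WT input, above both passenger strands and both miR-196 guides. The muscle marker miR-1a-3p of the same check stood at 1.61 ± 0.34 CPM. In WT IP these markers were 3.72-fold and 2.29-fold higher, in KD3 3.675-fold and 10.4-fold and in KD6 4.84-fold and 19.9-fold. miR-1a-3p had at most 4 counts in a KD6 input. The 5 fibroblast-associated miRNAs (miR-21a-5p, miR-199a-3p, miR-214-3p, miR-143-3p and miR-145a-5p) were lower in WT IP. They stood at 0.174 to 0.705 times input, all at an edgeR adjusted p under 0.05, beside 68.9% of the 550 in either direction. Mature miRNAs are nearly equal in length, so the CPM levels compare without a length correction, although ligation and amplification differ between sequences. In a bulk sample, expression in fewer cells and less RNA per cell cannot be told apart.

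**Figure D1:**
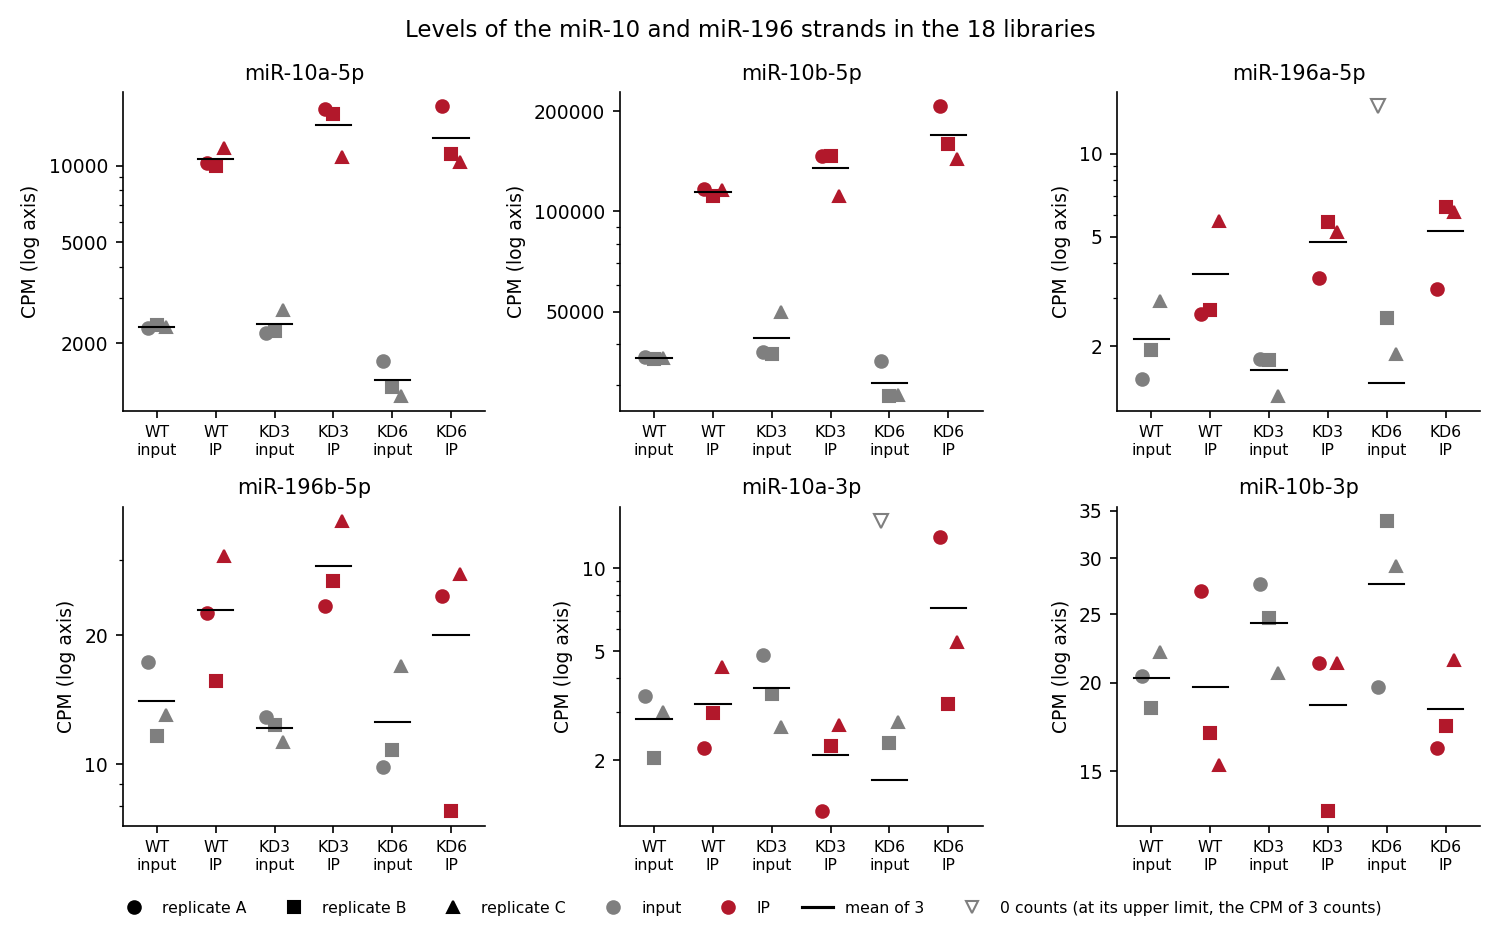
CPM of each strand (log axes, one panel per strand, axes not shared) in the 6 groups; gray symbols are input libraries, red symbols IP libraries, shapes the replicates and bars the mean of 3, with libraries at 0 counts included at 0 in the mean. The IP libraries of miR-10a-5p and miR-10b-5p lie above all inputs in each condition; the open triangles mark 0 counts in replicate A of the KD6 input, where 3 counts would be 14.8 CPM.

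The Ψ-IP enriched both miR-10 guides in every condition, and the miR-10a guide more than the miR-10b guide. In WT, miR-10a-5p stood at 10227, 9955 and 11770 CPM in the 3 IP libraries, against 2304 to 2355 in the inputs. The groups were far apart, and the IP was 4.58-fold higher, a log2 ratio of 2.19 (SE 0.21, edgeR quasi-likelihood adjusted p = 7.12e-09). miR-10b-5p rose from 36029 to 36503 CPM in input to 116960, 111470 and 115680 in IP, 3.17-fold (log2 1.66, SE 0.17, edgeR adjusted p = 3.02e-08).

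In KD3, miR-10a-5p stood at 2197, 2235 and 2698 CPM in input and at 16677, 16031 and 10784 in IP. This is 6.10-fold (log2 2.61, SE 0.21, edgeR adjusted p = 7.82e-10), with replicate C highest among the inputs and lowest among the IP libraries. miR-10b-5p gave 37719, 37376 and 49882 CPM in input and 146870, 146550 and 111510 in IP, with the same replicate C apart from the others. Its ratio was 3.24-fold (log2 1.70, SE 0.17, edgeR adjusted p = 2.41e-08).

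In KD6, miR-10a-5p stood at 1704, 1339 and 1237 CPM in input and at 17095, 11069 and 10319 in IP, 9.04-fold higher (log2 3.18, SE 0.22, edgeR adjusted p = 3.76e-11). miR-10b-5p stood at 35387, 27822 and 28103 CPM in input and at 206800, 159740 and 143960 in IP, 5.59-fold higher (log2 2.48, SE 0.18, edgeR adjusted p = 6.89e-11). Replicate A was the highest of its group in all 4 of these sets, and no IP library overlapped an input. The scaling sets the size of the KD6 ratios. The median-ratio factors were 0.611 to 0.851 in KD6 IP and 0.902 to 1.44 in KD6 input, and with the sum of miRNA counts as library size and no factors the log2 ratios were 2.44 for miR-10a-5p and 1.76 for miR-10b-5p. As shares of all miRNA counts, the 6 members together went from 4.41% ± 0.091 (SD, n = 3) in input to 12.9% ± 0.67 in IP in WT, from 4.68% ± 0.83 to 14.1% ± 1.62 in KD3, and from 3.75% ± 0.44 to 13.0% ± 0.75 in KD6.

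**Figure D2:**
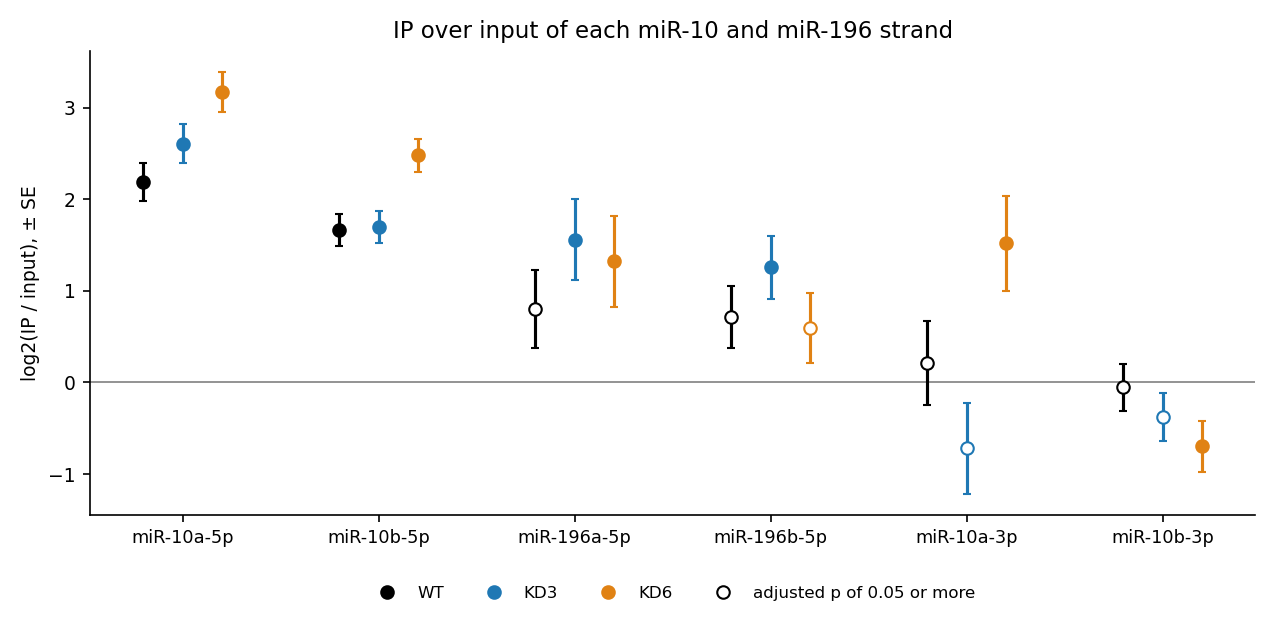
log2(IP / input) with its standard error for each strand (x axis) in WT, KD3 and KD6, from 3 IP and 3 input libraries each; filled symbols passed an adjusted p of 0.05. The miR-10 guides lie between 1.66 and 3.18 and are filled throughout, while the passenger strands lie between −0.72 and 1.52 and are mostly open.

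The passenger strands did not share this pattern. miR-10b-3p stood at 18.4 to 22.1 CPM in WT input and 15.3 to 26.9 in WT IP, with a log2 ratio of −0.05 (SE 0.26, 95% interval −0.59 to 0.48). In KD3 it was 27.6, 24.7 and 20.7 CPM in input and 21.3, 13.2 and 21.3 in IP, and the log2 ratio was −0.38 (SE 0.26, edgeR adjusted p = 0.198). The shallow KD6 input library enters the scaling of all others, and without it this ratio was −0.715 (adjusted p = 0.0201). In KD6 it was 19.7, 33.8 and 29.3 CPM in input against 16.2, 17.4 and 21.5 in IP. The ranges overlapped through replicate A of the input, which rests on 4 counts. The KD6 log2 ratio of −0.69 (SE 0.28, edgeR adjusted p = 0.0302) passed the threshold, but not without replicate B or C of the KD6 input (adjusted p = 0.152 and adjusted p = 0.0636) or without replicate A or B of the KD6 IP (0.11 and 0.0838). Other scalings gave a larger fall, −1.04 with TMM factors (adjusted p = 0.00477), −1.48 per sum of miRNA counts (adjusted p = 0.000447) and −1.82 per total mapped reads (adjusted p = 3.78e-05).

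miR-10a-3p rested on 0 to 67 counts per library. It stood at 3.44, 2.04 and 3.01 CPM in WT input and 2.22, 2.98 and 4.39 in WT IP, overlapping throughout, with a log2 ratio of 0.21 (SE 0.46) that turned to −0.09 with TMM factors and to −0.13 per total mapped reads. In KD3 the input held 4.82, 3.50 and 2.64 CPM and the IP 1.31, 2.26 and 2.70, a log2 ratio of −0.72 (SE 0.50, edgeR adjusted p = 0.200). In KD6 the input held 0, 2.32 and 2.76 CPM and the IP 12.9, 3.20 and 5.39. The 0 comes from replicate A of the input, where a count of 0 allows up to 14.8 CPM. The KD6 log2 ratio of 1.52 (SE 0.52, edgeR adjusted p = 0.0124) did not pass without that library (1.01, adjusted p = 0.0896), without replicate B of the input (0.0542) or without replicate A of the IP (0.93, adjusted p = 0.107). Nor did it pass with TMM factors (1.11, adjusted p = 0.0578), per sum of miRNA counts (0.60, adjusted p = 0.281) or per total mapped reads (0.26, adjusted p = 0.636).

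Both miR-196 guides, at low counts, rose in KD3 IP and did not pass the threshold in WT. In WT, miR-196b-5p stood at 17.4, 11.6 and 13.0 CPM in input and 22.6, 15.7 and 30.7 in IP. The groups overlapped, and the log2 ratio of 0.71 (SE 0.34) had an edgeR adjusted p of 0.0685, which passed the threshold in 5 of 28 alternatives. In KD3 the groups were apart, at 12.9, 12.4 and 11.3 CPM in input and 23.4, 26.7 and 36.9 in IP, 2.39-fold higher (log2 1.26, SE 0.35, edgeR adjusted p = 0.00298). In KD6 the input held 9.87, 10.8 and 17.0 CPM and the IP 24.7, 7.77 and 27.8, with replicate B of the IP below every input. The KD6 log2 ratio was 0.59 (SE 0.38, edgeR adjusted p = 0.169), it was 0.99 without that library (adjusted p = 0.012), and it turned to −0.24 per sum of miRNA counts and −0.59 per total mapped reads.

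miR-196a-5p, named here as the guide with 2 loci, held 0 to 37.5 counts per library. Its input levels do not show it as the strand mostly kept. miR-196a-1-3p, the other arm of the Mir196a-1 hairpin, stood at 2.16 CPM in WT input, beside 2.13 for miR-196a-5p (means of 3). In KD3 input these means were 3.22 and 1.64 CPM, and in KD6 input 2.82 and 1.47. miR-196a-2-3p had no counts. In WT miR-196a-5p stood at 1.53, 1.93 and 2.93 CPM in input and 2.62, 2.70 and 5.68 in IP, a log2 ratio of 0.80 (SE 0.43, edgeR adjusted p = 0.0991) with overlapping groups. In KD3 it stood at 1.80, 1.79 and 1.32 CPM in input and 3.55, 5.65 and 5.18 in IP. These groups did not overlap, and the IP was 2.95-fold higher (log2 1.56, SE 0.44, edgeR adjusted p = 0.0039). In KD6 it stood at 0, 2.54 and 1.88 CPM in input and 3.24, 6.40 and 6.13 in IP, a log2 ratio of 1.32 (SE 0.49, edgeR adjusted p = 0.0209) that fell to 0.82 without replicate A of the input (adjusted p = 0.153), to 1.15 without its replicate C (0.124) and to 1.17 without replicate C of the IP (0.0708). Other scalings ended this call as well, at 0.94 with TMM factors (adjusted p = 0.109), 0.50 per sum of miRNA counts (adjusted p = 0.378) and 0.18 per total mapped reads (adjusted p = 0.77). The 0 belongs to that replicate A, where 3 counts would be 14.8 CPM. Per total mapped reads neither miR-196 guide passed the threshold in KD3 (adjusted p = 0.0655 for miR-196a-5p and 0.107 for miR-196b-5p).

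Most miRNAs changed between input and IP, which sets the scale for these counts. In WT, 68.9% of the 550 miRNAs tested passed the threshold in either direction and 31.5% were higher in IP, and 2 of the 6 members (both miR-10 guides) were higher. In KD3 the shares were 70.5% and 34.4%, and 4 members (all guides) were higher. In KD6 they were 71.3% and 35.8%, with 4 members higher (both miR-10 guides, miR-196a-5p and miR-10a-3p) and miR-10b-3p lower. All 3 IP libraries lay above all 3 inputs for 2, 4 and 4 members in WT, KD3 and KD6, against 35.6%, 35.5% and 33.8% of all miRNAs. In KD6 these members include miR-10a-3p and miR-196a-5p, which had 0 counts in replicate A of the input. There 3 counts would be 14.8 CPM, above all their KD6 IP values, so the separation of these strands is not settled. The median log2 ratio of the 6 members was 0.76, 1.41 and 1.42, beside −0.04, −0.03 and −0.00 over all 550. miR-10a-5p ranked 56 from the top of 550 in WT, 35 in KD3 and 39 in KD6, and miR-10b-5p ranked 102, 114 and 90. Of the 475 tested miRNAs with a sequence, the 48 that hold UNUAA or UNUAG had a median log2 ratio of 0.28 in WT, 0.57 in KD3 and 0.54 in KD6, beside −0.09, −0.04 and −0.03 for the others, with all 4 miR-10 strands among the 48 (a description, not tested).

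Other scalings moved the median of all miRNAs to −0.35, −0.26 and −0.35 (TMM factors, in WT, KD3 and KD6), to −0.19, −0.18 and −0.81 (sum of miRNA counts) and to −0.37, −0.61 and −1.14 (total mapped reads). Relative to the median of all miRNAs, over all 28 alternatives, the WT ratio of miR-10a-5p stayed between 2.10 and 2.31, its KD3 ratio between 2.46 and 2.77 and its KD6 ratio between 2.88 and 3.33. For miR-10b-5p these ranges were 1.59 to 1.78, 1.54 to 1.80 and 2.29 to 2.61. Both guides passed the threshold in all 3 conditions under each of these alternatives.

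**Figure D3:**
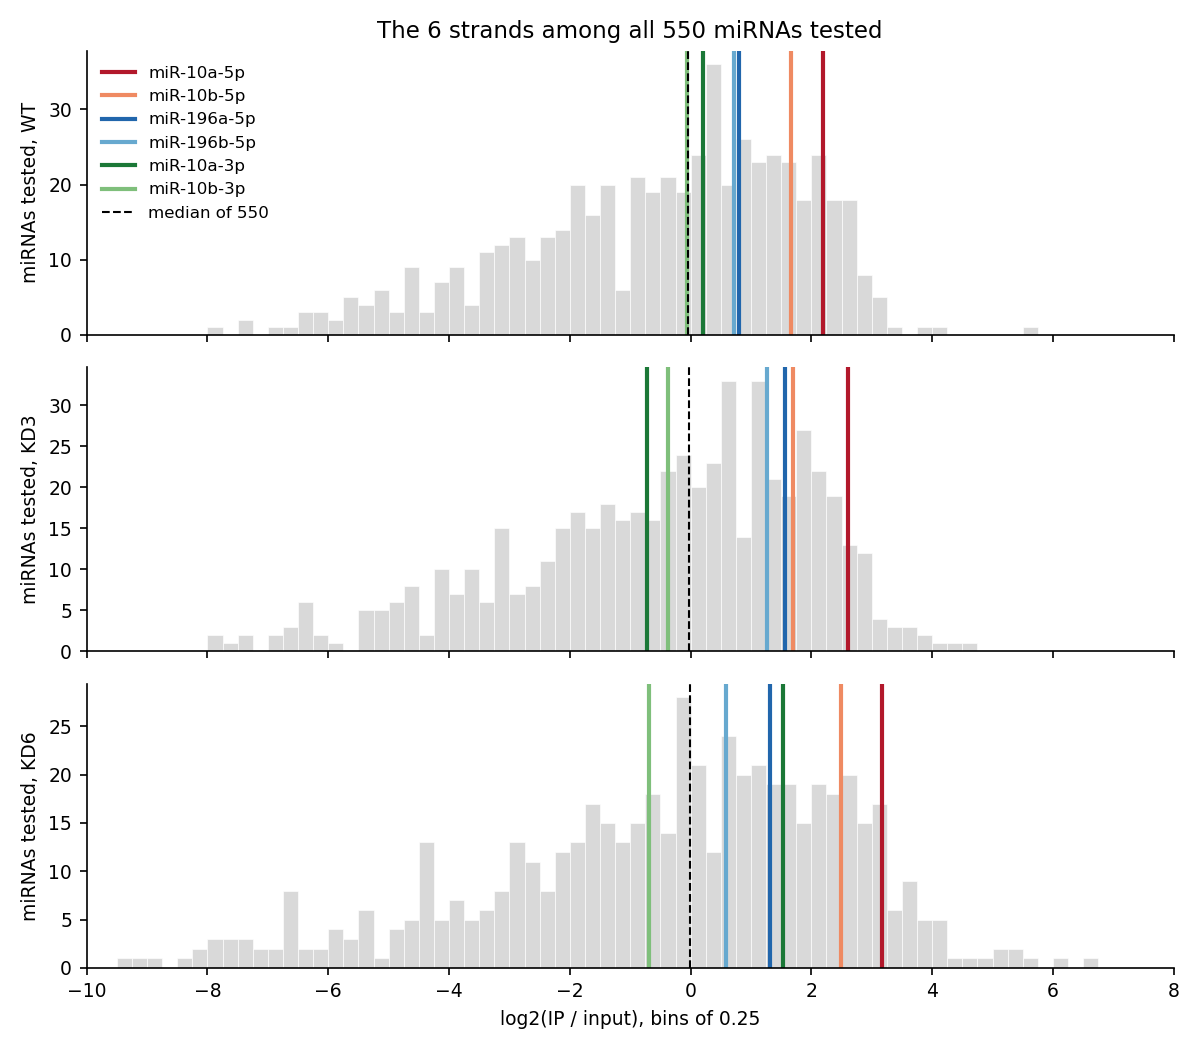
Histogram of log2(IP / input) over the 550 miRNAs tested (bins of 0.25, y axis in miRNAs) in WT, KD3 and KD6, with a colored line for each strand and a dashed line for the median of all. The miR-10 guides lie in the upper part of the distribution, the miR-196 guides between them and the median, and miR-10b-3p at or below the median.

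Ratios between members within a library need no scaling factor. For each of 6 ratios, the log2 ratio of estimated counts (with 0.5 added) was compared between IP and input by a two-sided exact permutation of the IP and input labels within each condition (8000 arrangements, smallest possible p 0.00025), with Benjamini-Hochberg adjustment over the 6.

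The U12A pair of guides separated in the IP. In WT input there were 0.0631 to 0.0654 counts of miR-10a-5p for each count of miR-10b-5p, and in WT IP 0.0874 to 0.102. In KD3 the ranges were 0.0541 to 0.0598 and 0.0967 to 0.114, and in KD6 0.0440 to 0.0482 and 0.0693 to 0.0827. Taking each IP library with each input of its condition, the IP was higher in 27 of 27 such pairs. The mean shift was 1.62-fold (log2 0.70, exact permutation p = 0.00025, adjusted p = 0.000375), with 1.44-fold in WT, 1.85-fold in KD3 and 1.59-fold in KD6. Sequences that differ at 1 base can exchange reads in counting, and the part of this in the shift was not tested. The same ratio differed between the inputs, whose WT, KD3 and KD6 ranges do not overlap, and 3 libraries against 3 cannot give an exact p below 0.1.

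The A12C pair did not separate. The ratio of miR-196a-5p to miR-196b-5p was 0.0907 to 0.227 in WT input and 0.121 to 0.187 in WT IP. Over the conditions the mean log2 shift was 0.38 (exact permutation p = 0.257, IP above input in 18 of 27 pairs), and by condition it was 0.07, 0.31 and 0.75. Over 23 settings it ran from 0.13 to 0.60, and miR-196a-5p held at most 37.5 counts in a library.

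Guide and passenger strands of the same hairpin moved apart. There were 660 to 1137 counts of miR-10a-5p for each count of miR-10a-3p in WT input and 2635 to 4358 in WT IP. Over the conditions this ratio was 5.24-fold higher in IP (log2 2.39, exact permutation p = 0.00025, adjusted p = 0.000375), above input in 27 of 27 pairs with 0.5 added. By condition it was 4.02-fold in WT, 9.98-fold in KD3 and 3.585-fold in KD6. In replicate A of the KD6 input miR-10a-3p had 0 counts, so the ratio there (691) is set by the added 0.5. Whether it lies below the KD6 IP libraries (1301 to 3230) is not settled. Over 23 settings, which include other added values, the log2 shift was 2.17 to 2.52. For miR-10b-5p over miR-10b-3p the WT ratio went from 1631 to 1952 in input to 4324 to 7528 in IP. It was 4.95-fold higher in IP over the conditions (log2 2.31, exact permutation p = 0.00025, adjusted p = 0.000375) and 3.35-fold, 4.28-fold and 8.47-fold in WT, KD3 and KD6.

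The miR-10 guides also shifted against the miR-196 guides. The sum of the miR-10 guides over the sum of the miR-196 guides was 2.15-fold higher in IP (log2 1.10, exact permutation p = 0.00075, adjusted p = 0.0009), in 26 of 27 pairs. These sums are mostly miR-10b-5p (8256458 counts, against 642129.5 of miR-10a-5p) and miR-196b-5p (2193.9, against 354.4 of miR-196a-5p). The shift was 2.03-fold in WT, 1.41-fold in KD3 with overlapping groups, and 3.48-fold in KD6.

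**Figure D4:**
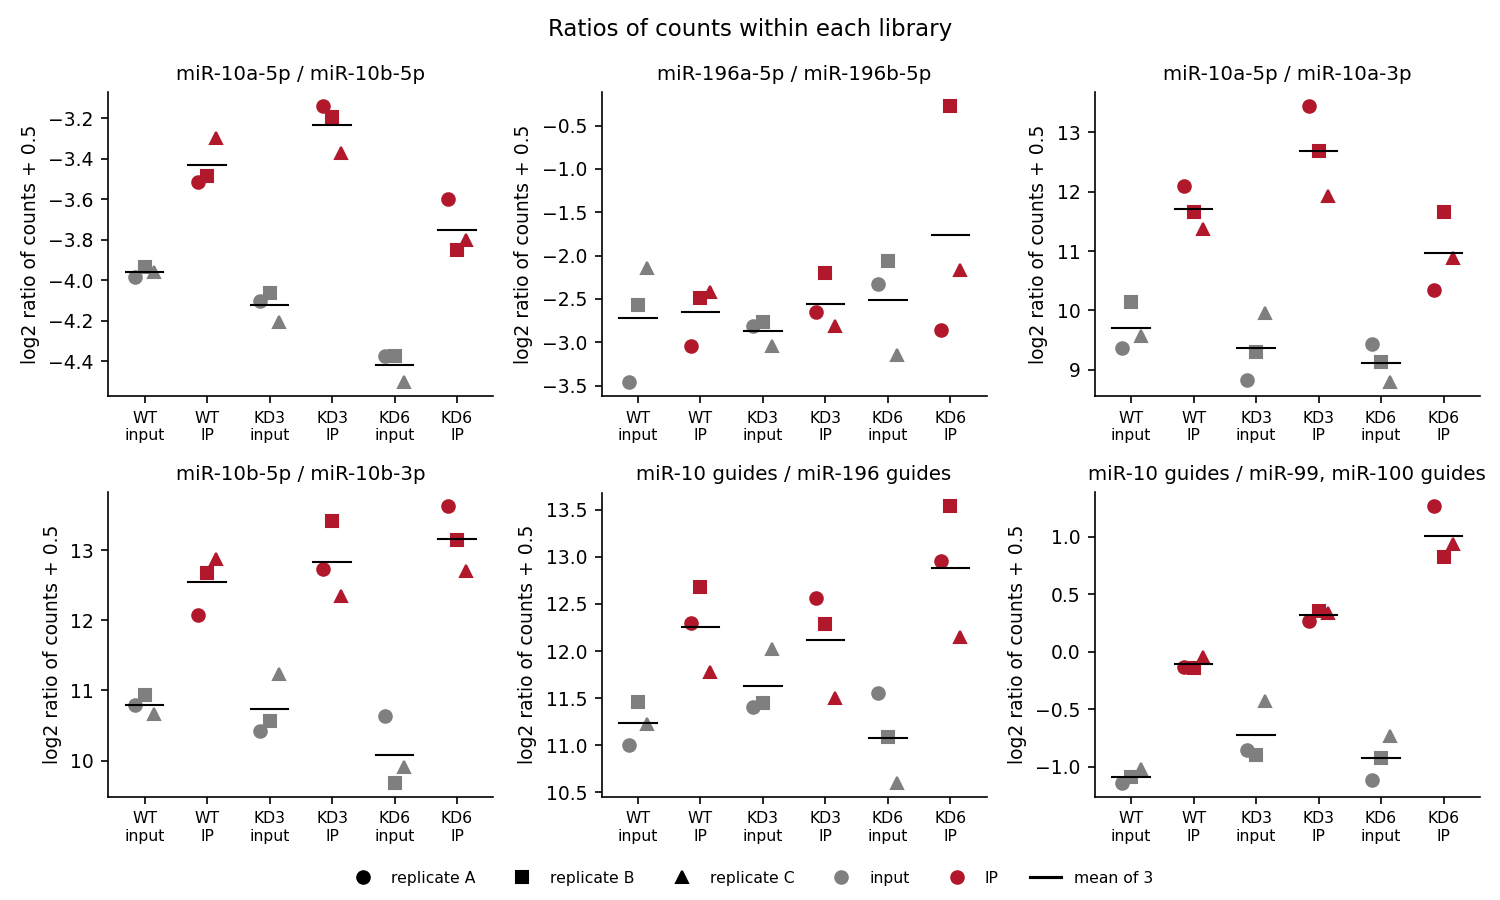
log2 of 6 ratios of estimated counts plus 0.5 within each library (y axes, not shared) in the 6 groups; gray symbols are inputs, red symbols IP libraries, shapes the replicates and bars the mean of 3. In all panels but miR-196a-5p over miR-196b-5p the IP libraries lie above the inputs in WT and KD6, and in KD3 the miR-10 over miR-196 panel overlaps. In the miR-10a-5p over miR-10a-3p panel, replicate A of the KD6 input had 0 counts of miR-10a-3p and its place is set by the added 0.5.

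The closest relatives of miR-10 outside the Hox clusters are the guides of the miR-99 and miR-100 hairpins, whose sequence is that of miR-10 moved by 1 base. They are shown because the shift changes the seed while most letters stay.
mmu-miR-100-5p: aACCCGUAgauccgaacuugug
mmu-miR-99a-5p: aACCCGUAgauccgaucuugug
mmu-miR-99b-5p: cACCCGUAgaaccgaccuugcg
At that offset miR-10a-5p and miR-100-5p share 19 of 22 bases, miR-10a-5p and miR-99a-5p 18, and miR-10b-5p and miR-99b-5p 16. In WT, miR-99b-5p was 2.02-fold higher in IP (47922 ± 2473 CPM in input, 96595 ± 6393 in IP, SD, n = 3, edgeR adjusted p = 2.56e-05). miR-100-5p (29574 ± 1324 and 37675 ± 4900 CPM) had a log2 ratio of 0.35 (SE 0.20, edgeR adjusted p = 0.118). miR-99a-5p, which differs from miR-100-5p by A16U alone, fell from 4469 ± 65.9 CPM to 752 ± 29.8, a log2 ratio of −2.57 (SE 0.17, edgeR adjusted p = 1.72e-11), and of −2.60 in KD3 and −2.998 in KD6. It holds 6 uridines, miR-100-5p 5 and miR-99b-5p 3, and none of them holds UNUAA or UNUAG. Of the 6 strands of these relatives, all tested, miR-99b-5p rose and miR-99a-5p and miR-99a-3p fell in WT. In KD3 miR-99b-5p, miR-99b-3p and miR-100-5p rose and the same 2 fell, and in KD6 miR-99b-5p and miR-99b-3p rose and the same 2 fell. miR-99a-3p held at most 1.5 counts in an IP library and none in KD6 IP, against 0 to 41.8 in the KD6 inputs. Their median log2 ratio was −0.26, 0.57 and 0.22, beside 0.76, 1.41 and 1.42 for the 6 members.

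Within a library, the miR-10 guides were 0.453 to 0.491 times the summed miR-99 and miR-100 guides in WT input and 0.905 to 0.968 times in WT IP. In KD6 the ranges were 0.461 to 0.600 and 1.77 to 2.40. Over the conditions the shift was 2.50-fold (log2 1.32, exact permutation p = 0.00025, adjusted p = 0.000375), above input in 27 of 27 pairs.

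The other products of Hox-cluster hairpins were miR-196a-1-3p, miR-196a-2-3p, miR-196b-3p and both arms of miR-615, which lies in the HoxC cluster. miR-615-3p, the most abundant of them, went from 527 ± 61.4 CPM in WT input to 1105 ± 57.0 in IP (SD, n = 3), 2.10-fold (edgeR adjusted p = 0.000107), and was 1.80-fold and 2.87-fold higher in KD3 and KD6. miR-615-5p, at 13 to 24 counts in WT input, was 5.71-fold higher in WT IP (log2 2.51, SE 0.46, edgeR adjusted p = 5.27e-05). miR-196a-1-3p fell in KD3 (log2 −1.56, SE 0.62, edgeR adjusted p = 0.0303), with −0.82 in WT and −0.41 in KD6. miR-196b-3p had at most 3 counts in a library and miR-196a-2-3p none in any, which allows up to 3 counts per library. So 3 of these 5 were tested, 2 rose in each condition and 1 fell in KD3.

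**Figure D5:**
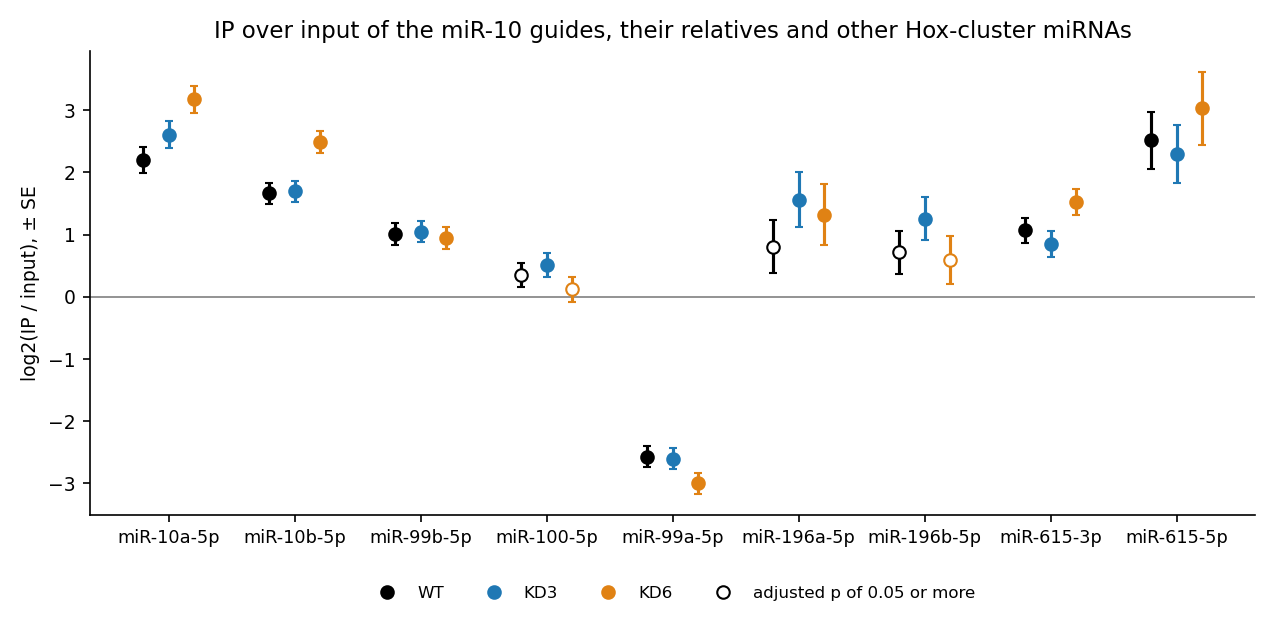
log2(IP / input) with its standard error in WT, KD3 and KD6 for the miR-10 guides, the guides of miR-99b, miR-100 and miR-99a, the miR-196 guides and both arms of miR-615; filled symbols passed an adjusted p of 0.05. miR-99a-5p lies between −2.57 and −2.998, while miR-100-5p, which differs from it at 1 base, lies between 0.12 and 0.52.

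The knockdown comparisons asked whether the IP enrichment depends on Pus1. None of the 6 members passed the threshold for a change in enrichment at either time. For KD3 against WT, edgeR called 0% of the 550 miRNAs and 2.91% had an unadjusted p under 0.05, none of them members. DESeq2 also called none. The changes were 0.41 (SE 0.28, 95% interval −0.17 to 1.00) for miR-10a-5p and 0.03 (SE 0.24, −0.46 to 0.53) for miR-10b-5p on the log2 scale. They ranged from −0.93 for miR-10a-3p to 0.76 for miR-196a-5p.

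For KD6 against WT, edgeR again called 0% of miRNAs, but 21.6% had an unadjusted p under 0.05, among them both miR-10 guides. DESeq2 called 23 miRNAs. The IP enrichment of miR-10a-5p was 0.98 higher in KD6 than in WT on the log2 scale (SE 0.28, 95% interval 0.39 to 1.57, edgeR adjusted p = 0.0985). That of miR-10b-5p was 0.82 higher (SE 0.24, interval 0.32 to 1.32, edgeR adjusted p = 0.0985). The median of all miRNAs moved by 0.25 in this comparison, so relative to it the changes were 0.73 and 0.57. DESeq2 called both (adjusted p = 0.0318 and 0.0311), and so did edgeR once IP replicate C of KD6 was left out (adjusted p = 0.024 and 0.0257). Without that library edgeR called 57 of 593 miRNAs. In the main fit the 2 changes ranked 103 and 135 from the highest of 550. The change of miR-21a-5p, outside the members, was also 0.98 (SE 0.40). With the sum of miRNA counts as library size the changes of miR-10a-5p and miR-10b-5p were 0.39 and 0.24, and per total mapped reads 0.24 and 0.09. Mean input levels were lower in KD6 than in WT, 1427 against 2327 CPM for miR-10a-5p and 30437 against 36225 for miR-10b-5p. Mean IP levels went from 10651 CPM in WT to 12828 in KD6 and from 114703 to 170167. As a mean share of miRNA counts in IP, miR-10a-5p went from 1.10% in WT to 0.905% in KD6. That of miR-10b-5p went from 11.8% to 12.1%. The other members differed by 1.31 (miR-10a-3p, SE 0.69), −0.64 (miR-10b-3p, SE 0.38), 0.52 (miR-196a-5p, SE 0.65) and −0.12 (miR-196b-5p, SE 0.51), with edgeR adjusted p of 0.261 to 0.921. The sign for miR-196a-5p turned to −0.14 per sum of miRNA counts and −0.27 per total mapped reads. Both comparisons of enrichment share the WT libraries.

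The inputs compare abundance before the IP. At day 3 no member passed the threshold, beside 0% of all 550 in edgeR, 8% with an unadjusted p under 0.05 and 8 miRNAs called by DESeq2. miR-10b-5p was 1.15-fold higher, with its 3 KD3 inputs (37376 to 49882 CPM) above all WT inputs (36029 to 36503), but its log2 ratio of 0.20 (SE 0.17) had an edgeR adjusted p of 0.853. Among the other listed miRNAs, miR-99a-5p, miR-199a-3p, miR-214-3p, miR-143-3p and miR-145a-5p also lay above all WT inputs. Below them lay miR-99b-5p, miR-99b-3p, miR-100-3p and miR-1a-3p. The share of all 550 with such separation was not counted, so it is not read as a trait of miR-10b-5p. The members' log2 ratios ranged from −0.38 (miR-196a-5p) to 0.39 (miR-10a-3p). Same-letter KD3 and WT inputs correlated at 0.20 to 0.61 in their deviations from group means, but different letters were not compared, so pairing is not established. With the letter as a block edgeR called 1 miRNA, not a member.

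At day 6, edgeR called 3.09% of miRNAs and no member. miR-10a-5p stood at 1237 to 1704 CPM, below all WT inputs (2304 to 2355), 0.610 times the WT level (log2 −0.71, SE 0.20, edgeR adjusted p = 0.0598). It passed the threshold in 9 of 27 alternatives, among them without replicate A of the KD6 input (−0.81, adjusted p = 0.0182), with TMM factors (−0.97, adjusted p = 0.00392), with the letter as a block (adjusted p = 0.0402) and in DESeq2 (adjusted p = 0.0297). miR-10b-5p also lay below all WT inputs, with a log2 ratio of −0.25 (SE 0.17, edgeR adjusted p = 0.536). Among the other listed miRNAs, miR-99a-5p, miR-99b-5p, miR-214-3p and miR-1a-3p lay below all WT inputs as well, and miR-122-5p above them. Of these, edgeR called miR-214-3p (log2 −0.84, SE 0.17, adjusted p = 0.00639). The share of all miRNAs with such separation was not counted, so it is not read as a trait of the miR-10 guides. miR-10b-3p had a log2 ratio of 0.56 (SE 0.27, edgeR adjusted p = 0.343). miR-10a-3p, miR-196a-5p and miR-196b-5p had log2 ratios of −0.19, −0.02 and −0.04, and the sign of all 3 turned per sum of miRNA counts.

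The miRNAs whose log2 CPM followed a guide most closely over the 18 libraries were taken from those with a mean of at least 100 CPM (148 candidates without the members). The libraries fall into input and IP, so a high correlation mainly requires a similar IP shift, and r within the 9 inputs and the 9 IP libraries is given as well. For miR-10a-5p these were let-7e-5p (Pearson r = 0.98, within inputs 0.76 and within IP 0.27), miR-320-3p (0.98, 0.84 and 0.21) and miR-485-5p (0.98, 0.56 and 0.64). For miR-10b-5p they were miR-485-5p (0.99, 0.72 and 0.94), let-7f-5p (0.98, 0.11 and 0.89) and miR-9-5p (0.97, 0.36 and 0.73). For miR-196a-5p they were miR-411-3p (0.83, 0.85 and 0.20), miR-351-5p (0.82, 0.71 and 0.43) and let-7b-5p (0.81, 0.93 and 0.49). For miR-196b-5p they were miR-16-5p (0.77, 0.60 and 0.68), miR-125b-5p (0.75, 0.60 and 0.73) and miR-382-5p (0.74, −0.21 and 0.65). The median r over the 148 candidates was 0.37 for each miR-10 guide, 0.26 for miR-196a-5p and 0.19 for miR-196b-5p. Between members, r was 0.99 for the miR-10 guides, 0.52 for the miR-196 guides and −0.60 for miR-10b-5p and miR-10b-3p. These correlations are descriptions, since the libraries share their scaling factors and differ in depth.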

How the data were processed

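Input and Ψ-IP small RNA libraries came from WT, KD3 and KD6 cells of the NIH/3T3 line (3 libraries per group). The authors ran SeqImp with its default mouse miRNA settings on mm10 and deposited estimated counts of mapped reads per mature miRNA and precursor, not normalized, with reads that match several loci divided among them (47.0% of non-zero values were not whole). Another deposited column set, other than counts, holds distinct read sequences and was not used for tests. Rows of a mature miRNA were summed and rounded to whole numbers (2045 rows, 1907 miRNAs, 1232 with reads). The row of total mapped reads was kept out of tests.

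The test was edgeR 4.0.16 under R 4.3.3 (median-ratio factors as in the study, filterByExpr, glmQLFit, glmQLFTest) in a model of 6 group means over 18 libraries without a block, in 7 comparisons with Benjamini-Hochberg adjusted p under 0.05. Standard errors were derived from the F statistic, as the absolute log2 ratio over its square root. Alternatives were TMM factors, library size or total mapped reads without factors, the largest row per miRNA, other filters, replicate blocks, only the libraries compared, DESeq2 1.42.0, other pseudocounts (1 and 0.1, for ratios) and each library left out. A count of 0 allows 3 counts. The fit was tested on simulated counts. Intervals and floors cover counting error and library spread only.

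Named miRNAs are the members, the other Hox-cluster products, the miR-99 and miR-100 strands and the 3 nearest patterns per guide. Members and lists were chosen with earlier results of these data known. Sequences are RefSeq's for GRCm38.p6, and gene overlaps come from GENCODE M21. Every same-letter correlation of deviations from group means (over 188 miRNAs) was above 0.1 only for KD3 and WT input (0.20 to 0.61). Different letters were not compared, so this does not establish pairing. In the other comparisons at least 1 pair was at or under 0.1. No label states what a letter shares.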

Additional observations from a re-analysis of the deposited data

How the results depend on the processing

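The IP enrichment of miR-10a-5p and miR-10b-5p passed the threshold in all 29 settings in each condition, and 5 of the 6 within-library ratios stayed past it in 23 settings (largest adjusted p = 0.00937). The numbers of miRNAs called between IP and input stayed within 1.5 times. Of 1164 alternative values for the members, 1076 kept direction and side of the threshold, 25 lost a call, 24 gained one and 39 changed sign, none of them where the result was called. The cause of these moves was not tested. The low counts of miR-196a-5p and miR-10a-3p and the depth of replicate A of the KD6 input limit what can be read from them.

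For the change in enrichment at day 3, 1 miRNA was called with no filter, against 0. At day 6, 51 were called per total mapped reads, 14 with no filter and 23 by DESeq2, against 0, and 0 to 57 with a library left out (57 without replicate C of the KD6 IP, 14 without replicate A of the KD6 input). Between inputs at day 3, 1 was called per library size without factors, 5 with no filter, 1 with the replicate letter as a block, 75 when only the libraries compared were fitted and 8 by DESeq2, against 0, and 0 to 4 with a library left out. Between inputs at day 6, 27 were called by DESeq2, against 17, and 6 to 31 with a library left out.

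Signs changed as follows. For IP against input in WT, miR-10a-3p was −0.0943 (TMM), −0.1325 (total mapped reads) and −0.0995 to 0.4045 (a library left out), and miR-10b-3p −0.3335 to 0.1067 (left out). In KD6, miR-196b-5p was −0.2429 (library size without factors) and −0.5902 (total mapped reads). For the change at day 3, miR-10b-5p was −0.2194 (total mapped reads), −0.0124 (only the libraries compared) and −0.0378 to 0.1842 (left out). For the change at day 6, miR-196a-5p was −0.1386 (library size) and −0.2732 (total mapped reads), and miR-196b-5p −0.4631 to 0.2682 (left out). For input at day 3, miR-10a-5p was −0.1055 (TMM), −0.0773 (library size), −0.1408 (total mapped reads) and −0.0756 to 0.082 (left out). For input at day 6, miR-10a-3p was 0.0356 (library size). miR-196a-5p was 0.1827 (library size), 0.1195 (total mapped reads), 0.0492 (only compared) and −0.3079 to 0.262 (left out), and miR-196b-5p 0.1685, 0.1088, 0.0384 and −0.3983 to 0.1779.

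With each IP and input of a letter as a replicate block, the KD6 enrichment of miR-10a-3p (1.02, adjusted p = 0.144) and miR-10b-3p (−0.62, adjusted p = 0.0905) was no longer called, and with the letter as a block the day 6 fall of miR-10a-5p in input was (adjusted p = 0.0402). The blocks changed no other call of a member. Same-letter IP and input libraries correlated at −0.18 to 0.52, with pairs on both sides of 0.1, and were not treated as pairs. Whether they share a culture is not stated. Per total mapped reads, the KD3 enrichment of miR-10a-3p (−1.30, adjusted p = 0.0189) and of miR-10b-3p (−0.97, adjusted p = 0.00803) and the day 6 change of miR-10b-3p (−1.44, adjusted p = 0.0459) were called.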
